A study of Mus musculus with 17 samples.

Results

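The Notch genes described here are 3 receptors (Notch1, Notch2 and Notch3), 4 ligands (Jag1, Jag2, Dll1 and Dll4), the glycosyltransferase Lfng and the transcriptional targets Hes1 and Hey1. They were chosen by name as components of 1 pathway and not by a cut on measured values, though with earlier results of these data known. They are 10 of the 34682 genes in the count table. All 10 passed the filter on low counts and were among the 17655 genes tested. Polyadenylated RNA was sequenced from mouse limb buds at E12.5 (E, embryonic day) in 15 libraries of 6 genotypes that carry, or lack, structural variants at the Sox9-Kcnj locus. Dup-C (2 libraries) and Dup-L (2 libraries) are duplications at that locus. ΔBor is the deletion of a domain boundary there, present in heterozygous (het, 2 libraries) and homozygous (hom, 1 library) embryos. Dup-LΔBor (4 libraries) joins Dup-L with that deletion, and wild type (WT, 4 libraries) is the control. The labels state neither the zygosity of the duplications, nor the limb sampled, nor whether replicates came from different embryos, so the spread behind each p-value is that between libraries and may be technical. The fingertip samples of a later stage are not analysed here.

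Notch receptors are single-pass membrane proteins that are activated by Jagged or Delta-like ligands on a neighbouring cell. Ligand binding leads to cleavage by ADAM proteases and γ-secretase, and the released intracellular domain joins the DNA-binding protein RBPJ and Mastermind to switch on genes such as the Hes and Hey repressors. Fringe glycosyltransferases such as Lfng modify the receptors and alter which ligands they answer to. In the limb bud, Jag2 is known from the apical ectodermal ridge, where its loss in mice leaves digits fused, while Dll4 and Notch1 act in endothelium and Notch3 in the mural cells around vessels.

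The genes differ in base composition, a property on which the libraries also differ. In the GENCODE M21 annotation (GRCm38), the longest transcript of Jag2 holds 61.9% G and C, which places it at percentile 98.0 of the tested genes. Notch3 holds 59.6%, Lfng 58.8% and Notch1 57.1%. Dll4, at 55.9%, is the fifth in the highest of 5 equal bins of GC content, which begins at 55.6%. Dll1 (54.9%), Notch2 (53.6%) and Hey1 (52.6%) fall in the bin below it. Hes1 (50.7%) and Jag1 (48.8%) lie in the middle bin. The receptors are also long, with 10500 bases for Notch2, 9488 for Notch1 and 8016 for Notch3, against 1468 for Hes1. Over the coding part alone, Hes1 holds 62.2% and Hey1 59.2%, against 62.4% for Jag2, 61.0% for Notch3, 58.9% for Notch1 and 52.9% for Jag1. The contrast between whole transcripts is illustrated by the following coding stretches of 120 bases, each within 1 exon, with G and C in capitals. Each was chosen for a GC content near that of its transcript, so the contrast between them is set by that choice. They show 2 receptors and a ligand whose levels differed among genotypes, and Jag1, a ligand that passed no test. Coordinates are on GRCm38, and each sequence runs 5′ to 3′ on its gene's minus strand.
Notch1, exon 3, chr2:26485330-26485449: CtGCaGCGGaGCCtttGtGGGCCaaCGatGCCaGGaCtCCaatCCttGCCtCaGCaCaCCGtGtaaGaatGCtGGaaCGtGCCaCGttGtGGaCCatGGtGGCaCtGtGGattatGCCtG
Notch3, exon 4, chr17:32158599-32158718: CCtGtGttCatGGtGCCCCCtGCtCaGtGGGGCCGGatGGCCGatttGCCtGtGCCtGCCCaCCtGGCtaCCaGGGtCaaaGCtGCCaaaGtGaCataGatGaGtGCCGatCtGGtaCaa
Jag2, exon 4, chr12:112920357-112920476: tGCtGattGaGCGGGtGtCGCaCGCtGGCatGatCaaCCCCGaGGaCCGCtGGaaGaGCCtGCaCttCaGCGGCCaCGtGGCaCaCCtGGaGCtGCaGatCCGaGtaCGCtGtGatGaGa
Jag1, exon 4, chr2:137101697-137101816: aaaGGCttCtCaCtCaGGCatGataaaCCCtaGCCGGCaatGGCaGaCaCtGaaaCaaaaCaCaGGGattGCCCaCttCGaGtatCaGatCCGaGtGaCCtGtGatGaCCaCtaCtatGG
The related Jag2 and Jag1 stretches hold 61.7% and 49.2% G and C.

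The promoters of these genes also vary in GC content, but not in the order of their transcripts. RefSeq promoters (GRCm38.p6, 250 bases before to 50 after the start) were found for 8 of the 10 genes, all except Hes1 and Hey1. The Jag2 promoter is 86.0% G and C, at percentile 99.96 of all promoters, whose median is 52.7%. The Notch2 promoter has 73.0%, above those of Notch3 (70.0%), Notch1 (68.3%) and Lfng (66.7%), though its transcript holds less G and C than theirs. The Jag1 promoter has 55.7%. The Jag2 promoter is printed because it lies so near the top of this range, and the Lfng promoter because it alone of the 8 held the motif searched. That motif was TGGGAA, the core bound by RBPJ, and it was searched on both strands together with the longer GTGGGAA, which contains it. Among 27025 promoters of the same length, 25.52% hold TGGGAA and 6.39% hold GTGGGAA. The Lfng promoter holds TGGGAA at 2 positions, capitalised below, one of which is a GTGGGAA. A match in this window is a description and not a binding site.
Jag2, chr12:112929446-112929745, minus strand: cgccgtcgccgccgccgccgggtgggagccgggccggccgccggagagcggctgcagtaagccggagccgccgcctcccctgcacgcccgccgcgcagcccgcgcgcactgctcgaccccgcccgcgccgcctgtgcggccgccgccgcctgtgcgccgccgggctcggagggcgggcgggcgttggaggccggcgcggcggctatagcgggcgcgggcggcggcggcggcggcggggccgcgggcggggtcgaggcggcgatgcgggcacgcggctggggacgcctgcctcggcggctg
Lfng, chr5:140607091-140607390, plus strand: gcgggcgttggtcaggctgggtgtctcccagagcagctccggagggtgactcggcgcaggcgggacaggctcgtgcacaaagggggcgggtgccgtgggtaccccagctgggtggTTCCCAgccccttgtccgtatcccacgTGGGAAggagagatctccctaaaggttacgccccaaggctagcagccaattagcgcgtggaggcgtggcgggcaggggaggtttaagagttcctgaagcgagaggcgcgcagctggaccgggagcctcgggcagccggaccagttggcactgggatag

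Total counts ranged between 34486256 and 53711742 per library, so that the least abundant of these genes, Dll1, still had 203 to 516 counts. Column headers carry library numbers in 2 ranges: the first holds WT 1, WT 2, Dup-C, Dup-L and ΔBor, and the second WT 3, WT 4 and Dup-LΔBor, whose columns are named R2 to R5. The R4 and R5 headers share 1 library number. A chi-square comparison of their counts over 16441 genes gave 27.3 per degree of freedom, where sampling noise alone gives about 1, against 6.28 to 35.5 for the other pairs of that genotype, so they were kept as 2 libraries. Pitx1, a hindlimb regulator, stood at 0.518 and 0.677 CPM (counts scaled to library size) in Dup-L and at 1.83 CPM in WT 2 and WT 4, against 39.9 to 116 CPM in all other libraries, and its level was examined as a covariate. Summed markers of limb mesenchyme were at 1978 to 2040 CPM in Dup-L, 1872 to 1972 CPM in ΔBor het and 1846 CPM in ΔBor hom. All of these lay above the WT libraries, at 1677 to 1824 CPM. Dup-C (1611 to 1727 CPM) and Dup-LΔBor (1622 to 1724 CPM) overlapped WT. Of the 5 markers, 1 rose and 2 fell in Dup-L against WT, and their part in the Notch results was not tested. The GC gap of a library, the median log2 deviation of genes in the highest GC bin minus that of genes in the lowest, was −0.65 and −0.75 in Dup-L, −0.61 and 0.03 in ΔBor het and −0.42 in ΔBor hom. It was 0.11 and −0.16 in Dup-C, 0.14 to 0.52 in Dup-LΔBor and 0.14 to 0.39 in WT. In bulk tissue, fewer cells of a type and less RNA per cell cannot be told apart.

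Per length of transcript, Hes1, Notch3 and Notch2 were the most abundant of the 10, with mean levels over all 15 libraries of 21.0, 20.8 and 19.9 FPKM (fragments per kilobase of transcript, scaled by the authors). Hey1 followed at 14.3 FPKM, then Jag2 at 12.8, Jag1 at 8.81 and Notch1 at 8.02. Lfng averaged 4.70 FPKM, and the Delta-like ligands Dll4 and Dll1 were lowest at 2.27 and 1.92 FPKM. The ranges over libraries overlapped between each neighbouring pair in this order. The order of group means differed between genotypes. In Dup-L, Notch3 (9.75 FPKM) stood below Hey1, in Dup-C Hey1 (17.4 FPKM) was just above Notch2 (17.1 FPKM), and in WT the most abundant was Notch2 (24.0 FPKM), then Notch3 (22.6 FPKM) and Hes1 (21.6 FPKM). Within 1 gene, the highest library exceeded the lowest 3.82-fold in CPM for Notch1, 3.44-fold for Notch3 and 3.38-fold for Jag2, against 1.69-fold for Hes1 and 1.30-fold for Jag1. The most variable genes were thus 2 receptors and 1 Jagged ligand, and the other Jagged ligand varied least.

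**Figure D1:**
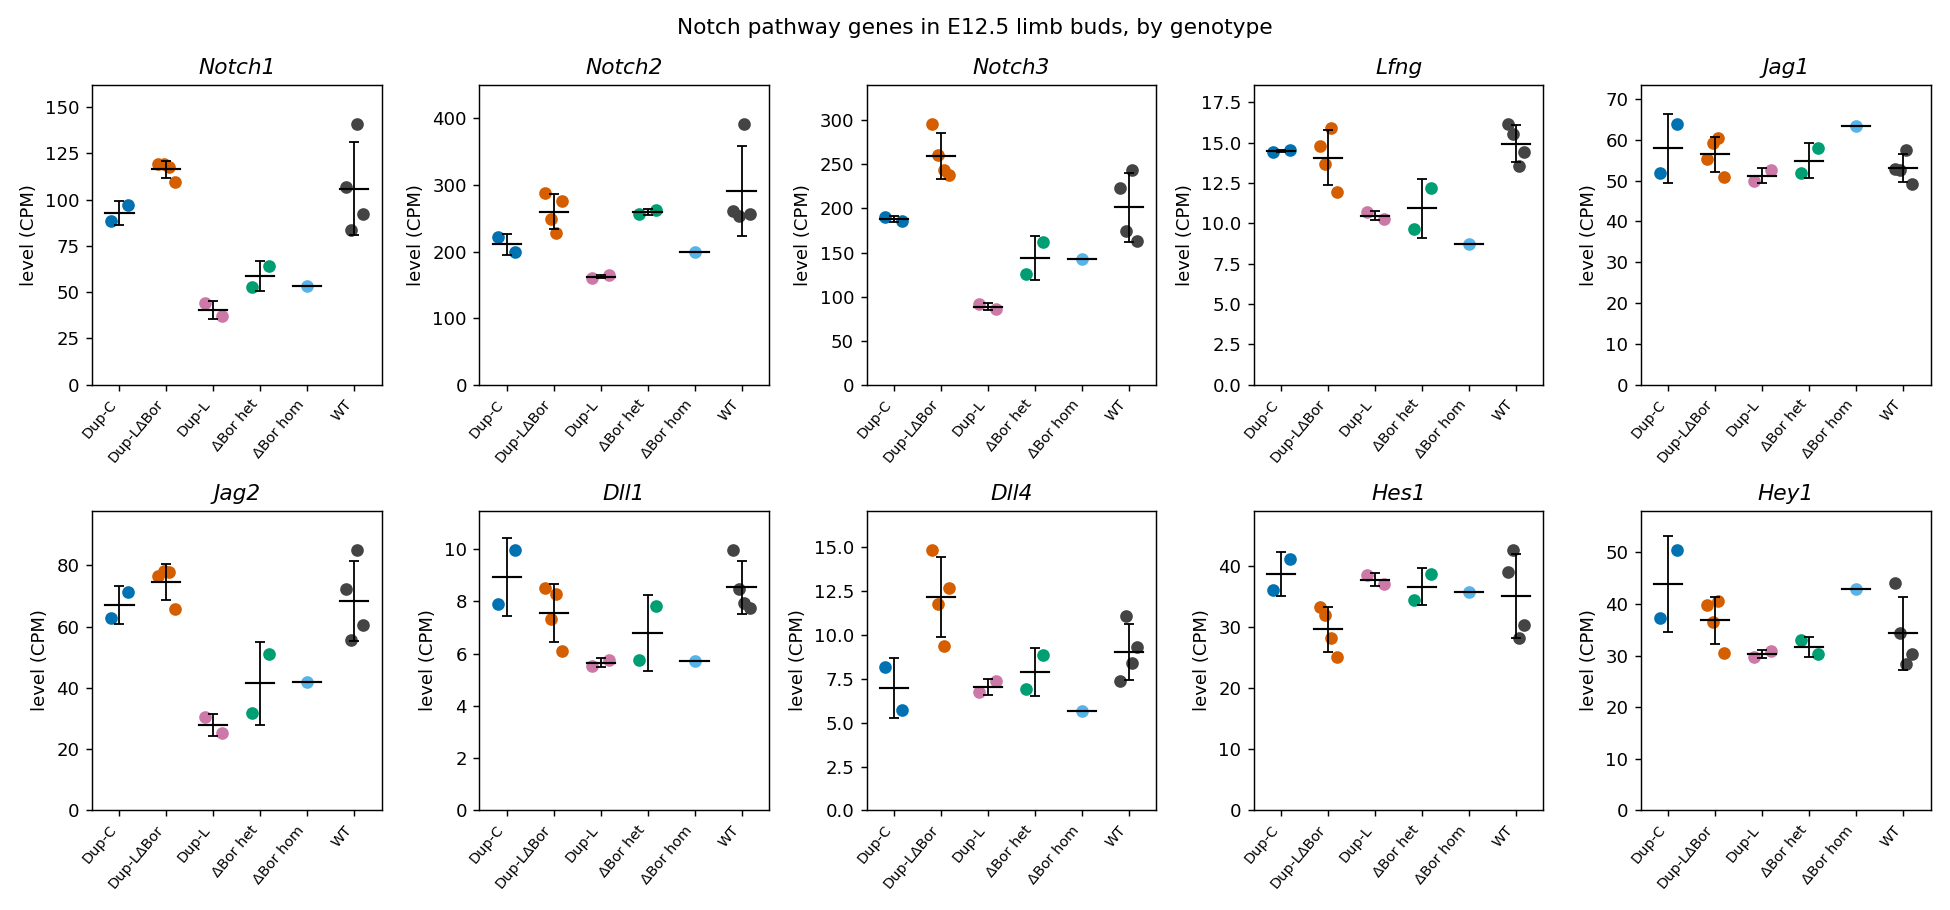
Level of each Notch pathway gene in CPM (counts scaled to library size, y axis, from 0) in every E12.5 limb bud library (points) by genotype (x axis). Horizontal lines are group means and bars the SD, with no bar for the single ΔBor hom library. Notch1, Notch3 and Jag2 are lowest in Dup-L (27.8 CPM on average for Jag2, against 68.4 in WT), while Jag1 lies between 49.2 and 63.8 CPM in every library.

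A test of any difference among the 6 genotypes asked which of these genes vary at all with genotype. Notch1, Notch2, Notch3, Jag2, Dll4 and Lfng passed, 6 of 10, where 43.3% of all tested genes passed (edgeR quasi-likelihood F-test, Benjamini-Hochberg over all tested genes, adjusted p of 0.000302, 0.0083, 0.000361, 0.000766, 0.0109 and 0.00751 in that order). Jag1, Dll1, Hes1 and Hey1 did not, with adjusted p of 0.406, 0.0555, 0.241 and 0.142. The same test was repeated with offsets that remove, in each library, the smooth dependence of the counts on GC content and transcript length. Notch1, Notch3 and Jag2 passed with these offsets, at adjusted p of 0.00288, 0.00559 and 0.0188, where 28.8% of all tested genes passed. With the library-number range as a further term beside the offsets, 0 of 10 passed, against 1.2% of all tested genes, and the lowest adjusted p among the 10 was 0.0518, for Notch1.

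Dup-L against WT gave the lowest receptor levels of the series. All 3 receptors, the ligands Jag2 and Dll1, and Lfng fell in Dup-L, 6 of the 10 genes, and none rose. Notch1, Jag2 and Notch3 stood at 38.2%, 40.7% and 44.0% of their WT levels. These WT levels average libraries of high and low Pitx1. WT 2 and WT 4, low in Pitx1 as both Dup-L libraries were, held the lower WT levels of all 3 genes. Notch1, for example, had 83.7 and 92.0 CPM in WT 2 and WT 4, against 107 and 141 CPM in WT 1 and WT 3. The targets Hes1 and Hey1 and the ligands Jag1 and Dll4 did not pass the test. Of all tested genes, 32.4% passed in this comparison, and 16.6% passed and were lower in Dup-L.

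Notch1, a receptor of endothelium and of surface ectoderm, had 43.9 and 36.9 CPM in Dup-L, against 107, 83.7, 141 and 92.0 CPM in WT. Both Dup-L libraries lay below all 4 WT libraries, and the log2 fold change was −1.39 ± 0.17 (SE, edgeR adjusted p = 0.00138). Notch3, the receptor of mural cells, had 91.2 and 86.1 CPM in Dup-L, against 224, 174, 244 and 163 CPM in WT. The groups again did not overlap, with a log2 fold change of −1.18 ± 0.16 (edgeR adjusted p = 0.00138). Notch2, a more broadly expressed receptor, had 161 and 164 CPM in Dup-L, against 261, 253, 392 and 257 CPM in WT. Its log2 fold change was smaller, at −0.84 ± 0.16 (edgeR adjusted p = 0.00227), and its groups were also separate.

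Among the ligands, Jag2 had 30.4 and 25.2 CPM in Dup-L, against 72.2, 55.6, 85.1 and 60.7 CPM in WT (log2 fold change −1.30 ± 0.19, edgeR adjusted p = 0.00141). Dll1, a ligand best known from somite segmentation and neurogenesis, had 5.53 and 5.77 CPM in Dup-L, against 9.96, 8.47, 7.92 and 7.75 CPM in WT (log2 fold change −0.59 ± 0.18, edgeR adjusted p = 0.0224). Both ligands were lower in each Dup-L library than in any WT library. The other ligands overlapped between groups. Jag1 had 49.9 and 52.5 CPM in Dup-L, against 49.2 to 57.5 CPM in WT (−0.05 ± 0.11 on the log2 scale). Dll4, the ligand of sprouting vessels, had 6.73 and 7.37 CPM in Dup-L, against 7.36 to 11.1 CPM in WT (−0.36 ± 0.21, edgeR adjusted p = 0.208). Lfng had 10.7 and 10.3 CPM in Dup-L, against 16.2, 15.6, 13.6 and 14.4 CPM in WT, with no overlap (−0.51 ± 0.14, edgeR adjusted p = 0.0117). In all, 6 of the 10 genes did not overlap and were lower in Dup-L, as were 24.6% of all tested genes.

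The targets did not pass. Hes1, a helix-loop-helix repressor and the best known Notch target, had 38.5 and 37.0 CPM in Dup-L, against 39.0, 42.6, 28.2 and 30.3 CPM in WT (0.11 ± 0.15 on the log2 scale, edgeR adjusted p = 0.639). Hey1, a related repressor known from vessels, had 29.8 and 30.8 CPM in Dup-L, against 44.1, 34.4, 28.4 and 30.2 CPM in WT (−0.18 ± 0.17, edgeR adjusted p = 0.455). Both Dup-L libraries lay inside the WT range for each target. Whether the fold changes of the receptors and targets differ from each other was not tested.

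Part of the receptor difference ran with GC content. The median log2 fold change of all tested genes in the highest GC bin was −0.52, in the bin below it −0.25 and in the middle bin −0.03, in Dup-L against WT. Lfng, at −0.51, and Dll4, at −0.36, did not exceed the median of their bin. Notch1, Notch3 and Jag2 lay beyond theirs by more than their SE, as did Notch2 and Dll1, and Jag1, at −0.05, was within its SE of the median of its bin. With the GC and length offsets, 4 of the 10 genes fell, where 6.76% of all tested genes passed and 4.73% passed and were lower. The log2 fold change was then −0.80 ± 0.14 for Notch1 (edgeR adjusted p = 0.0101), −0.48 ± 0.11 for Notch3 (0.0268), −0.54 ± 0.15 for Jag2 (0.0471) and −0.42 ± 0.12 for Notch2 (0.0492). Lfng no longer differed beyond its SE, at −0.04 ± 0.11 (edgeR adjusted p = 0.861), and Dll1 no longer passed, at −0.31 ± 0.17 (0.285). Hes1 was at 0.10 with the offsets, against 0.11 without them. The median of the 10 genes was −0.55 without and −0.19 with offsets, where the median of all tested genes was 0.00 and −0.01.

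**Figure D2:**
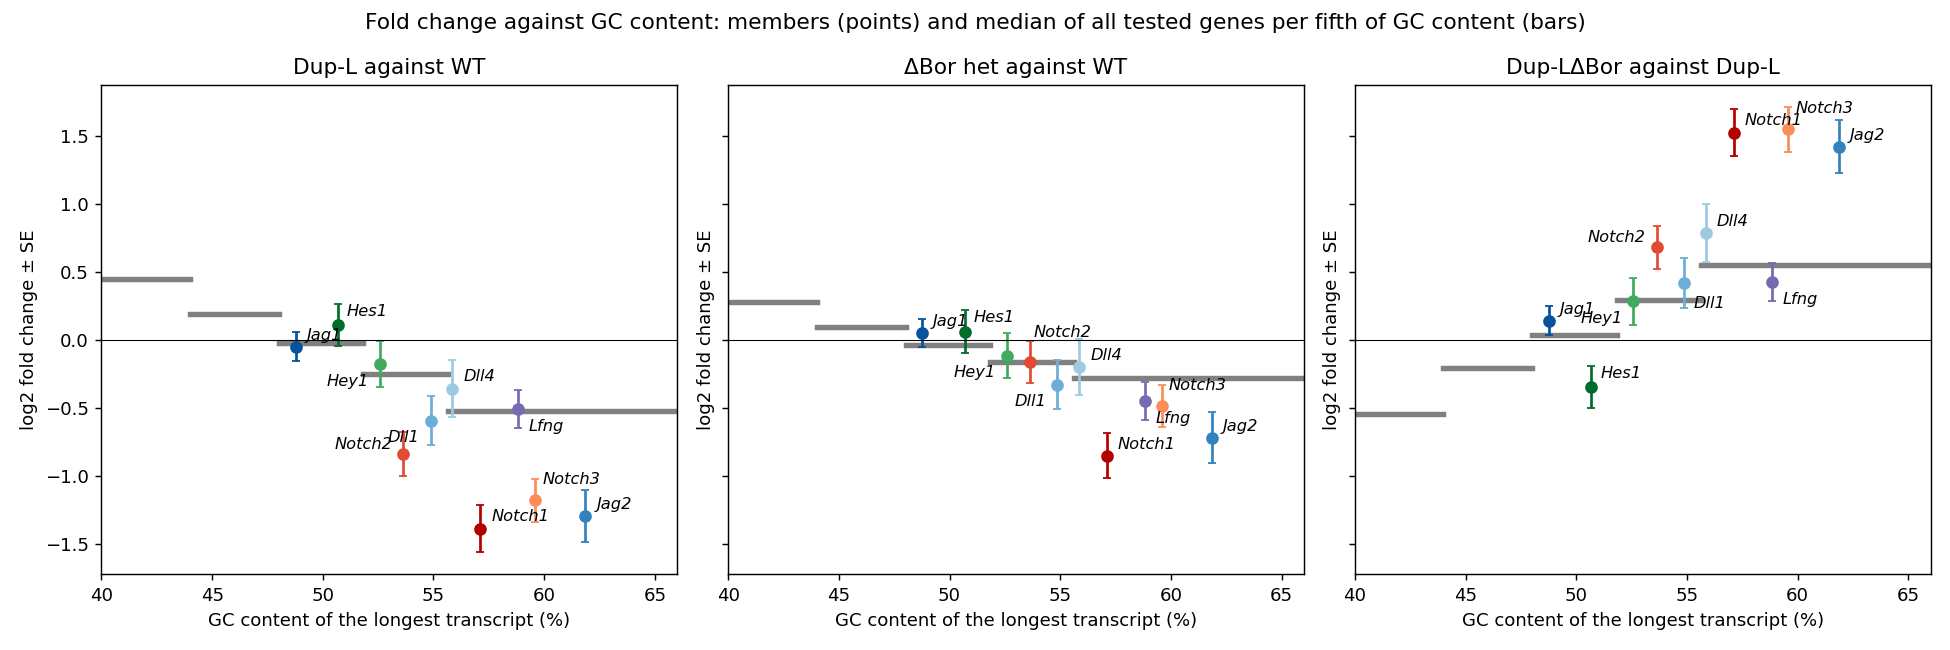
Log2 fold change ± SE (y axis) of each Notch pathway gene against the GC content of its longest transcript (x axis, %), with grey bars for the median of all tested genes in each of 5 bins of GC content, for Dup-L against WT, ΔBor het against WT and Dup-LΔBor against Dup-L. Notch1, Notch3 and Jag2 lie beyond the bar of their bin in all 3 panels, whereas Lfng lies close to its bar in Dup-L (−0.51 against a median of −0.52).

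Other measures also moved with this comparison. Within the first library-number range alone, which leaves WT 1 and WT 2, the same count of 6 of 10 fell, where 17.6% of all tested genes passed, with Notch1 at −1.28 (edgeR adjusted p = 0.0148). With the range and the offsets together, Notch1 alone fell, at −0.66 (edgeR adjusted p = 0.043), where 1.4% of all tested genes passed. With Pitx1 as a covariate 0 of the 10 passed and 0% of all tested genes did, with log2 fold changes of −0.95 for Notch1 and −0.75 for Notch3 (edgeR adjusted p = 0.0576 for each), against −1.39 and −1.18 without it. With Pitx1 and the offsets together, Notch1 was at −0.51 (edgeR adjusted p = 0.283), Notch3 at −0.17 (0.538) and Jag2 at −0.18 (0.695). Summed endothelial markers were at 441 to 458 CPM in Dup-L, against 454 to 579 CPM in WT, and 6 of 14 fell while 1 rose. Mural markers summed to 232 to 243 CPM in Dup-L, against 287 to 396 CPM in WT (1 of 6 fell). Surface ectoderm markers summed to 444 to 602 CPM in Dup-L, against 606 to 954 CPM in WT (4 of 7 fell). Apical ridge markers summed to 22.2 to 22.5 CPM in Dup-L, against 16.1 to 46.1 CPM in WT (1 of 5 fell). Nerve and glia markers summed to 105 to 107 CPM in Dup-L, against 143 to 168 CPM in WT, without overlap, and 5 of 6 fell while 1 rose. Of the apical ridge markers, 1 was at 0 in Dup-L 2 and 1 in WT 1. No marker of the other lists here was at 0, and the part of these cell types in the Notch results was not tested.

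Dup-LΔBor against Dup-L compares the duplication without and with the boundary. Pitx1 level also separated these genotypes, being far higher in every Dup-LΔBor library than in either Dup-L library. Differences found here therefore cannot be assigned to loss of the boundary rather than to the difference in Pitx1 level. Notch1, Notch2, Notch3, Jag2 and Lfng, which had fallen in Dup-L against WT, rose in Dup-LΔBor against Dup-L, as did Dll4, 6 of 10 in all, and none fell. Dll1, which had also fallen in Dup-L, did not pass here. Notch3 and Notch1 were 2.93-fold and 2.88-fold higher, and Jag2 2.68-fold. Of all tested genes, 43.6% passed, and 21.5% passed and were higher in Dup-LΔBor. This comparison shares the Dup-L libraries with the one above, so the directions are not independent of each other.

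Notch1 had 119, 119, 118 and 109.7 CPM in Dup-LΔBor R2 to R5, against 43.9 and 36.9 CPM in Dup-L (log2 fold change 1.53 ± 0.17, edgeR adjusted p = 6.6e-05). Notch3 had 296, 261, 244 and 238 CPM in Dup-LΔBor, against 91.2 and 86.1 CPM in Dup-L (1.55 ± 0.16, edgeR adjusted p = 4.23e-05). Jag2 had 76.4, 78.1, 78.0 and 65.8 CPM in Dup-LΔBor, against 30.4 and 25.2 CPM in Dup-L (1.42 ± 0.19, edgeR adjusted p = 0.000126). In each of these 3 genes every Dup-LΔBor library lay above both Dup-L libraries. Notch2 had 288, 249, 228 and 276 CPM in Dup-LΔBor, against 161 and 164 CPM in Dup-L (0.68 ± 0.16, edgeR adjusted p = 0.00329). Dll4 had 14.9, 11.8, 9.35 and 12.7 CPM in Dup-LΔBor, against 6.73 and 7.37 CPM in Dup-L (0.79 ± 0.21, edgeR adjusted p = 0.00789). Exons of Dll4 overlap those of the antisense gene Gm14207, which had 3 to 19 counts per library against 206 to 712 for Dll4, and without a stated strand setting their reads cannot be told apart. Lfng had 14.8, 13.7, 15.9 and 11.9 CPM in Dup-LΔBor, against 10.7 and 10.3 CPM in Dup-L (0.43 ± 0.14, edgeR adjusted p = 0.0211).

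The remaining genes did not pass. Dll1 (0.42 ± 0.18, edgeR adjusted p = 0.0753) was higher in every Dup-LΔBor library than in Dup-L. Hes1 had 33.2, 32.0, 28.2 and 25.1 CPM in Dup-LΔBor, against 38.5 and 37.0 CPM in Dup-L, and was the 1 gene lower in every Dup-LΔBor library (−0.35 ± 0.15, edgeR adjusted p = 0.0801). With the library-number range as a term the Hes1 value was 0.13 ± 0.17. Hes1 levels also separated the library-number ranges in WT, at 28.2 and 30.3 CPM in WT 3 and WT 4 of the second range and 39.0 and 42.6 CPM in WT 1 and WT 2 of the first. Hey1 (0.28 ± 0.17, edgeR adjusted p = 0.194) and Jag1 (0.14 ± 0.11, edgeR adjusted p = 0.304) overlapped between groups. With the library-number range as a term Hey1 passed, at 0.71 (edgeR adjusted p = 0.0449). In total 7 of the 10 genes were higher without overlap, as were 32.3% of all tested genes, and 1 was lower, as were 32.4%.

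With the GC and length offsets, Notch1 (0.84 ± 0.14, edgeR adjusted p = 0.00118), Notch3 (0.76 ± 0.12, 0.000793) and Jag2 (0.62 ± 0.15, 0.0087) rose, 3 of 10, where 27.2% of all tested genes passed. The median of the highest GC bin without offsets was 0.55, above the 0.43 of Lfng, whose offset fold change was −0.10 ± 0.11. Notch2 was at 0.19 ± 0.12 with offsets (edgeR adjusted p = 0.249) and Dll4 at 0.37 ± 0.19 (0.165). All Dup-LΔBor libraries are of the second library-number range and all Dup-L libraries of the first, so the range enters only through WT. With the range as a term 4 of 10 passed, where 13% of all tested genes did. These were Notch1, Notch3, Jag2 and the target Hey1, which had not passed without the term. With the range and the offsets Notch3 alone passed, at 0.76 (edgeR adjusted p = 0.0497), where 1.52% of all tested genes passed. With Pitx1 as a covariate Notch1 and Notch3 passed, at 0.87 and 0.90, where 7.87% of all tested genes did. With Pitx1 and the offsets together 0 of 10 passed, against 3.68% of all tested genes. The median of the 10 genes was then −0.01, with 4 positive and 6 negative. Neither genotype held libraries of both high and low Pitx1, so this covariate rests largely on WT, which alone held both. Endothelial markers summed to 503 to 637 CPM in Dup-LΔBor, against 441 to 458 CPM in Dup-L (7 of 14 rose, 1 fell). Mural markers summed to 298 to 385 CPM in Dup-LΔBor, against 232 to 243 CPM in Dup-L (1 of 6 rose, 1 fell). Surface ectoderm markers summed to 579 to 699 CPM in Dup-LΔBor, against 444 to 602 CPM in Dup-L (2 of 7 rose), and nerve and glia markers to 112 to 136 CPM in Dup-LΔBor, against 105 to 107 CPM in Dup-L (2 of 6 rose). Their part in the Notch results was not tested.

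**Figure D3:**
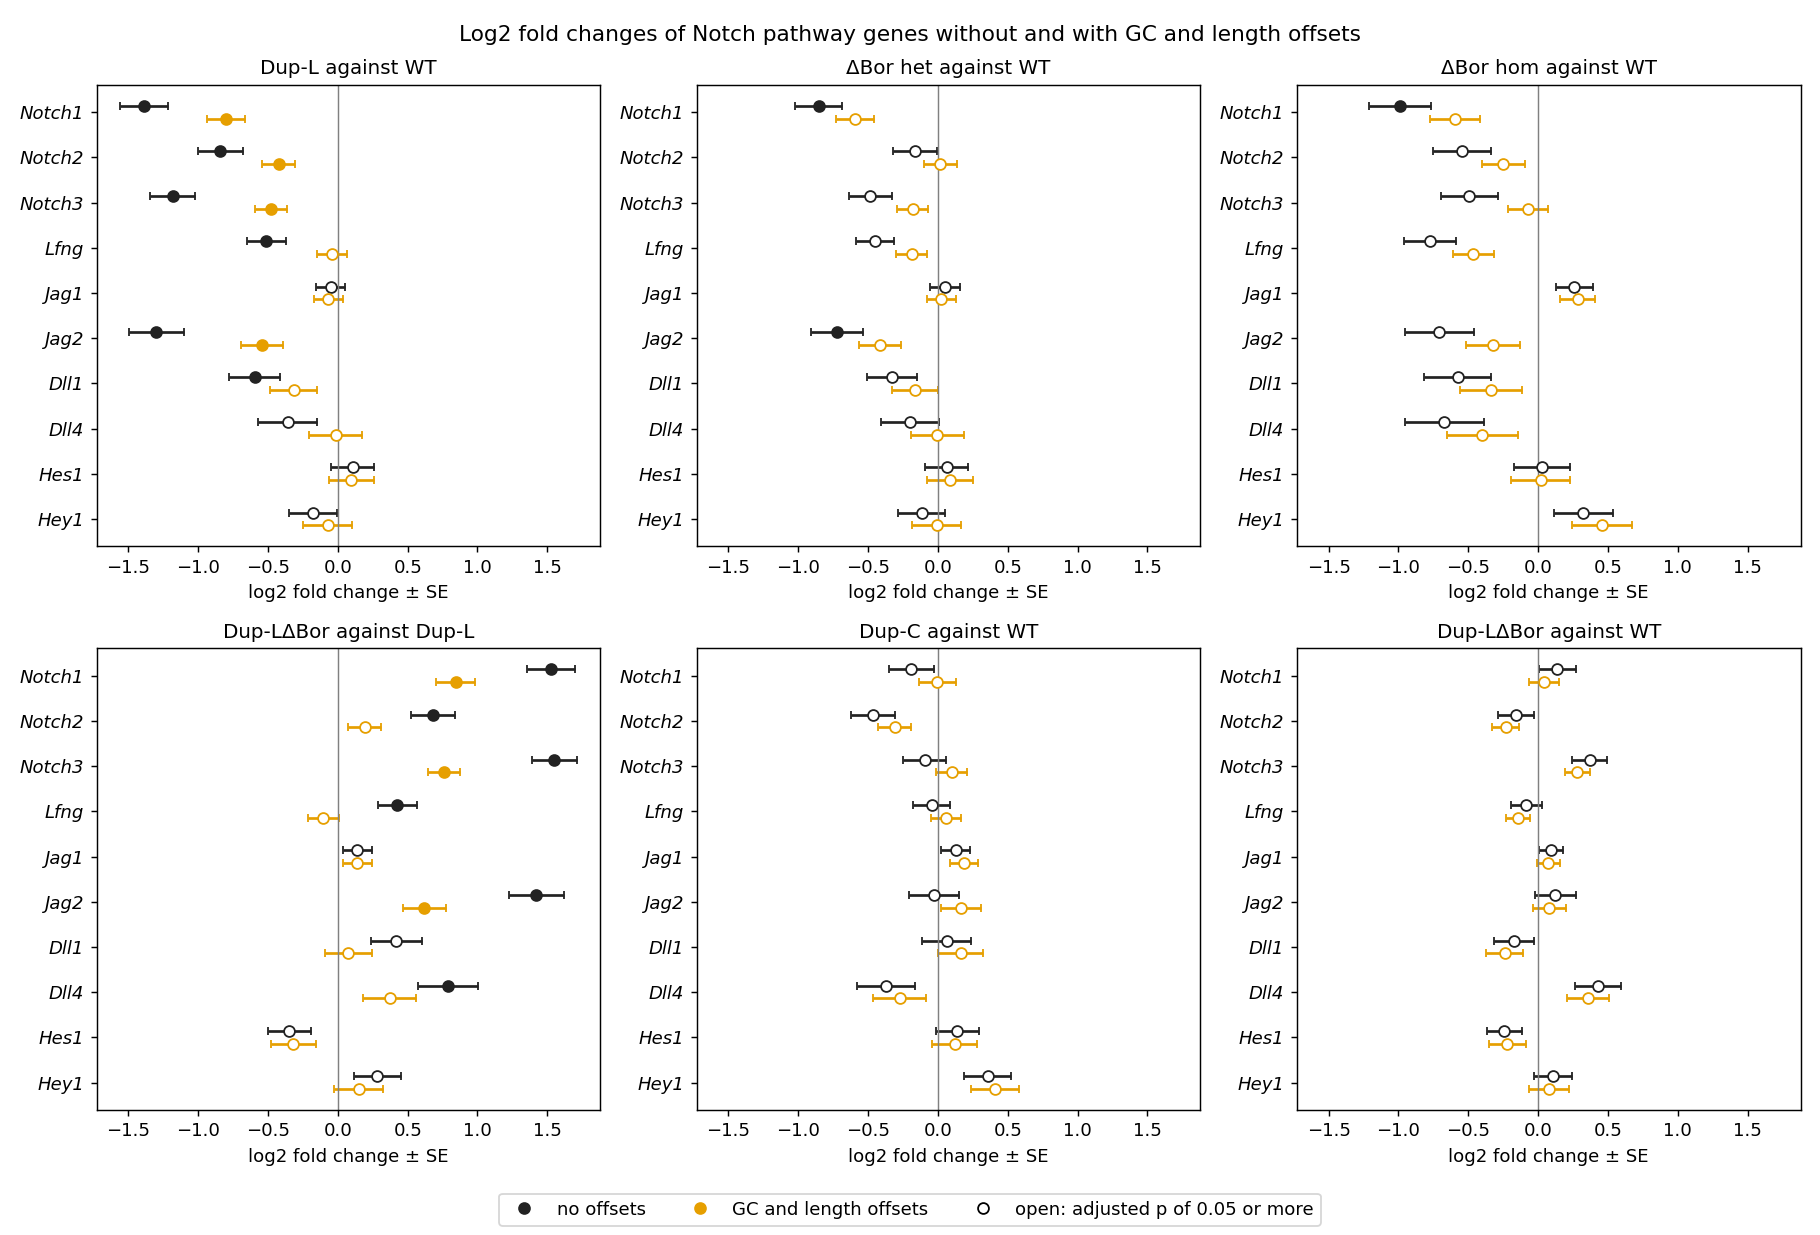
Log2 fold change ± SE (x axis) of the 10 Notch pathway genes (rows) in 6 comparisons (panels), without offsets (black) and with GC and length offsets (orange). Filled points have an adjusted p below 0.05. Notch1, Notch2, Notch3 and Jag2 are filled under both fits in Dup-L against WT (−0.80 for Notch1 with offsets), and Notch1, Notch3 and Jag2 in Dup-LΔBor against Dup-L (0.84 for Notch1 with offsets).

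Dup-LΔBor against WT compares the combined variant with the control. None of the 10 genes passed with edgeR's quasi-likelihood test, where 3.85% of all tested genes passed, or with DESeq2, where 10.3% did. None passed with the GC and length offsets, where 6.91% did, or within the second library-number range, where 0.385% did. Of the 10, 2 had an unadjusted p below 0.05, among 4183 such genes in all. These were Notch3, at 296, 261, 244 and 238 CPM in Dup-LΔBor, against 224, 174, 244 and 163 CPM in WT (0.37 ± 0.12, edgeR adjusted p = 0.0947), and Dll4, at 9.35 to 14.9 CPM in Dup-LΔBor, against 7.36 to 11.1 CPM in WT (0.43 ± 0.17, edgeR adjusted p = 0.137). Notch1 averaged 116 ± 4.55 CPM in Dup-LΔBor and 106 ± 25.2 CPM in WT (SD, n = 4 each). Every one of the 10 genes overlapped between these groups, where 12.3% of all tested genes did not. Without WT 3, Notch3 passed at 0.47 (edgeR adjusted p = 0.0342). Nerve and glia markers summed to 112 to 136 CPM in Dup-LΔBor, against 143 to 168 CPM in WT (3 of 6 fell). Endothelial, mural and surface ectoderm sums overlapped between these groups, and the part of these markers in the Notch results was not tested.

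The comparisons of each variant with WT share the 4 WT libraries. With the boundary deletion alone, Notch1 and Jag2 were lower in heterozygotes. These 2 of the 10 genes fell in ΔBor het against WT, where 4.03% of all tested genes passed and 1.78% passed and were lower. Notch1 had 52.9 and 64.3 CPM in ΔBor het, against 107, 83.7, 141 and 92.0 CPM in WT (−0.85 ± 0.17, edgeR adjusted p = 0.0262). Jag2 had 32.0 and 51.1 CPM in ΔBor het, against 72.2, 55.6, 85.1 and 60.7 CPM in WT (−0.72 ± 0.19, edgeR adjusted p = 0.0463). Both lay below every WT library, as did Notch3 (−0.49 ± 0.15, edgeR adjusted p = 0.0748) and Lfng (−0.45 ± 0.14, edgeR adjusted p = 0.0684), 4 of 10 in all, against 13.3% of all tested genes. Notch2 was at 256 and 262 CPM in ΔBor het, within the WT range (−0.16 ± 0.16). Hes1 (0.06 ± 0.15) and Hey1 (−0.12 ± 0.17) overlapped between groups.

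With the GC and length offsets none of the 10 passed in ΔBor het, where 0.578% of all tested genes did, and Notch1 stood at −0.59 ± 0.14 (edgeR adjusted p = 0.0713) and Jag2 at −0.41 ± 0.15 (0.174). Of the 10, these 2 had an unadjusted p below 0.05 with the offsets. The first of the ΔBor het libraries, with a GC gap of −0.61, had the lower level of both genes, and without it Notch1 was at −0.73 (edgeR adjusted p = 0.534) and Jag2 at −0.43 (0.607). Without WT 3 or WT 4, Jag2 did not pass (edgeR adjusted p of 0.0858 and 0.0855). Within the first library-number range none of the 10 passed, where 0.306% of all tested genes did, with Notch1 at −0.72 (edgeR adjusted p = 0.179). Surface ectoderm markers summed to 511 to 583 CPM in ΔBor het, against 606 to 954 CPM in WT (1 of 7 fell), and nerve and glia markers to 97.4 to 124 CPM in ΔBor het, against 143 to 168 CPM in WT (2 of 6 fell). Both sums lay below every WT library, and their part in the Notch results was not tested.

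The single ΔBor hom library has no replicate and was assumed to vary like the other groups. Notch1 was at 53.3 CPM in ΔBor hom, against 83.7 to 141 CPM in WT, and was the 1 gene of 10 that fell (−0.99 ± 0.22, edgeR adjusted p = 0.0489), where 1.27% of all tested genes passed. Lfng was at 8.73 CPM in ΔBor hom, against 13.6 to 16.2 CPM in WT, and did not pass (−0.78 ± 0.19, edgeR adjusted p = 0.0506). Notch1, Notch2, Notch3, Jag2, Dll1, Dll4 and Lfng, 7 of 10, lay below all WT libraries, as did 29.4% of all tested genes. Jag1, at 63.4 CPM in ΔBor hom against 49.2 to 57.5 CPM in WT, lay above them (0.26 ± 0.13, edgeR adjusted p = 0.23), as did 29.9% of all tested genes. With the offsets none of the 10 passed, where 0.125% of all tested genes did, and Notch1 was at −0.59 ± 0.18 (edgeR adjusted p = 0.171). Within the first library-number range none passed, where 0.142% of all tested genes did, with Notch1 at −0.85 (edgeR adjusted p = 0.22). Without WT 4, Notch1 did not pass (−1.03, edgeR adjusted p = 0.0842). Summed markers of the ΔBor hom library were also below all WT libraries for endothelium (383 CPM in ΔBor hom, against 454 to 579 CPM in WT), mural cells (212, against 287 to 396 CPM), nerve and glia (87.3, against 143 to 168 CPM) and surface ectoderm (508, against 606 to 954 CPM). Of these lists 1 of 6 nerve and glia markers and 1 of 7 surface ectoderm markers fell, and their part in the Notch results was not tested.

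Dup-C against WT called no Notch gene. None of the 10 passed with edgeR, where 0.00566% of all tested genes passed, or with DESeq2, where 0.0479% did, and 2 of the 10 had an unadjusted p below 0.05, among 2933 such genes. Notch2 had 222 and 199.5 CPM in Dup-C, against 253 to 392 CPM in WT, without overlap (−0.46 ± 0.16, edgeR adjusted p = 0.251), as for 19.4% of all tested genes. Hey1 had 37.3 and 50.5 CPM in Dup-C, against 28.4 to 44.1 CPM in WT (0.36 ± 0.17, edgeR adjusted p = 0.299), and passed without WT 1 (0.50, edgeR adjusted p = 0.0401). Notch1 had 88.3 and 97.2 CPM in Dup-C, inside the WT range of 83.7 to 141 CPM (−0.19 ± 0.16). Jag2, at 62.7 and 71.4 CPM in Dup-C, also lay inside its WT range (−0.03 ± 0.18). Nerve and glia markers summed to 121 to 123 CPM in Dup-C, against 143 to 168 CPM in WT, and mural markers to 241 to 256, against 287 to 396 CPM. Both sums lay below every WT library, though no marker of either list passed. Endothelial and surface ectoderm sums overlapped WT, and the part of these markers in the Notch results was not tested.

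Across libraries, Notch1, Notch3 and Jag2 were lowest where the GC gap was most negative. Dup-L 2, Dup-L 1 and ΔBor het 1, in that order, had the most negative gaps and the lowest levels of all 3 genes. Over the 15 libraries, the log2 CPM of Notch1 had a Pearson r of 0.98 with Jag2, 0.96 with Notch3, 0.73 with Notch2, 0.22 with Jag1 and −0.48 with Hes1. These r values describe points that share genotypes and GC gaps, and with the offsets they were 0.96 with Jag2, 0.86 with Notch3, 0.30 with Notch2 and −0.49 with Hes1. The genes most like Notch1 over the libraries were Nomo1, Ephb2 and Plxnb2 (r of 0.98 to 0.99), and those most like Notch3 were Camsap3, Lrp5 and Carm1 (0.98 to 0.99). Fam129b, Agap3 and Tfip11 were most like Jag2 (0.98 to 0.99), and Tns3, Ptgfrn and Tenm3 most like Notch2 (0.95 to 0.96). Hes1 ran closest to Rfng, Cuta and Ier5 (0.91 to 0.92) and Hey1 to Shh, Gja3 and Asb4 (0.91 to 0.93). Plod1, Zfr2 and Rapgef3 were nearest to Dll4 (0.96 to 0.97), Erbb3, Fbxo46 and Tead4 to Dll1 (0.91 to 0.96), Syvn1, Mrpl55 and Arhgef19 to Lfng (0.92 to 0.93), and Txnl4b, Spc24 and Samd10 to Jag1 (0.82 to 0.84). With the offsets, Nomo1 stayed among the closest 3 of Notch1, Camsap3 of Notch3, Gja3 of Hey1, Zfr2 of Dll4, and Erbb3 and Fbxo46 of Dll1, while the closest 3 of Hes1 were Elk1, Id2 and Ddt.

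**Figure D4:**
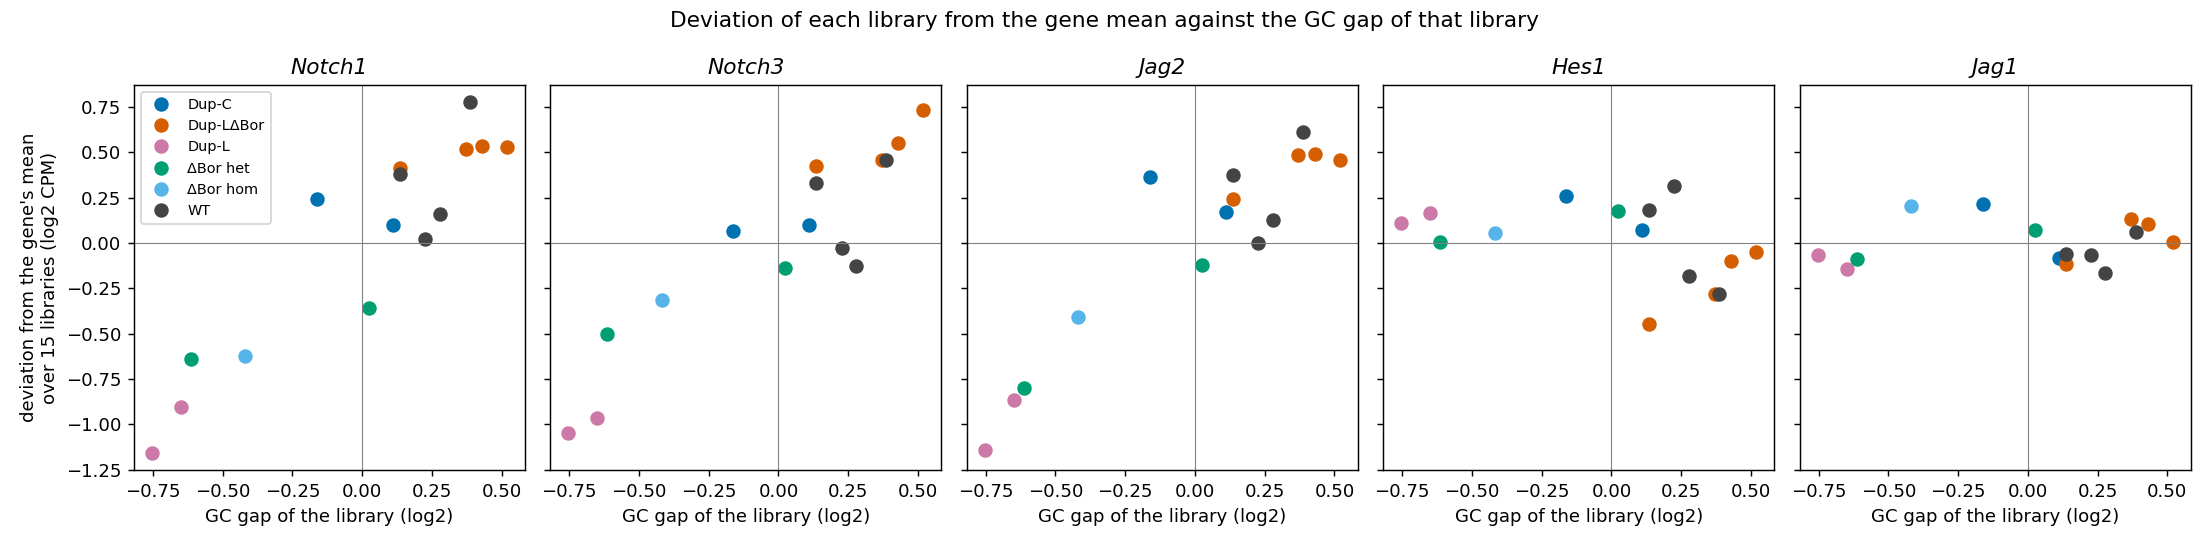
Deviation of each library from the gene's mean over the 15 libraries (y axis, log2 CPM) against the GC gap of that library (x axis, log2), for Notch1, Notch3, Jag2, Hes1 and Jag1, with points coloured by genotype. The Dup-L libraries, with gaps of −0.65 and −0.75, are the lowest points for Notch1, Notch3 and Jag2, and lie near 0 for Hes1 and Jag1.

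The wider pathway was described with a list of 44 other Notch genes, of which 42 were tested. Notch4, the endothelial receptor, was listed at 0 in every library and Tle1 at 0 or 1 count, so neither was tested. Endothelial markers summed to 360 to 637 CPM over the libraries. How reads were counted per gene is not stated, so these values cannot be read as absence of the transcripts. In Dup-L against WT, 4 of the 42 rose and 14 fell, where 32.4% of all tested genes passed and 16.6% passed and were lower, with a median log2 fold change of −0.16 for the 42 and 0.00 for all. The 5 with the smallest adjusted p all fell. They were the ligand endocytosis ligase Mib2 (−1.06 ± 0.19, edgeR adjusted p = 0.00187), the protease Furin that processes Notch receptors (−0.85 ± 0.16, 0.00193), the corepressor Tle3 (−0.59 ± 0.12, 0.00333), the Deltex gene Dtx2 (−0.70 ± 0.15, 0.00351) and the corepressor Spen (−0.72 ± 0.15, 0.00375). Mib2 had 23.3 and 20.3 CPM in Dup-L, against 35.7 to 51.8 CPM in WT. Of the targets, Hey2 rose (0.48 ± 0.17, edgeR adjusted p = 0.0402), at 9.92 and 7.96 CPM in Dup-L against 5.71 to 7.14 CPM in WT, while Heyl (−0.15) and Nrarp (−0.18), an inhibitor that Notch itself induces, did not pass. Hes5 had 1 to 15 counts per library and did not pass (0.76). Rbpj, the DNA-binding partner of all Notch receptors, was at 0.12, the ligand Dll3 at −0.60, and the Fringe genes Mfng at −0.10 and Rfng at 0.17, none of which passed.

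With the offsets, 1 of the 42 rose and 1 fell in Dup-L, with a median of −0.04, where 6.76% of all tested genes passed and 4.73% passed and were lower. Furin (−0.43 ± 0.11, edgeR adjusted p = 0.0361) fell, and Rfng rose (0.66 ± 0.17, 0.0361). Hey2 was at 0.19 with the offsets (edgeR adjusted p = 0.53). Of the 14 that fell without offsets, Furin also fell with them.

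**Figure D5:**
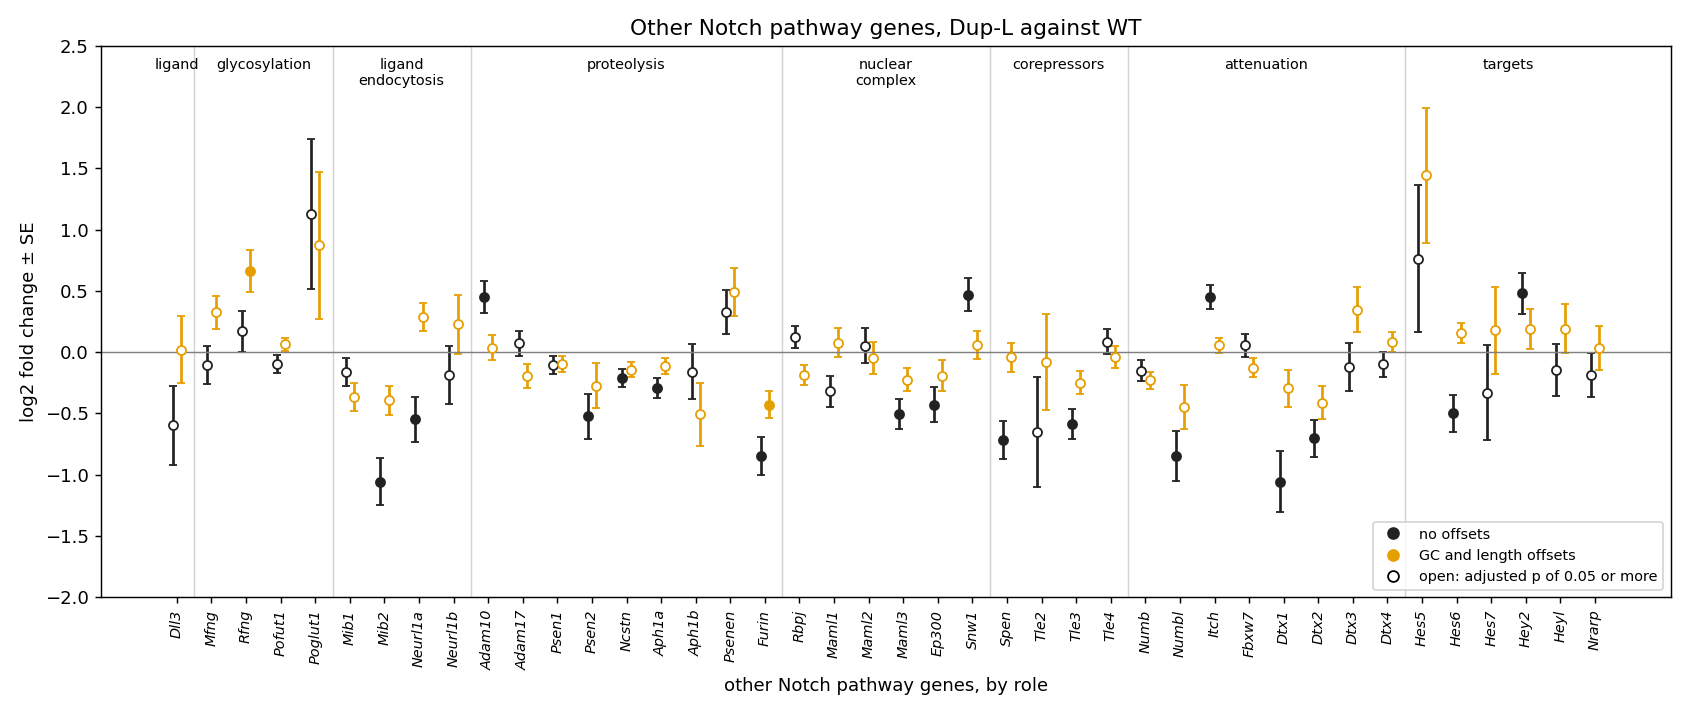
Log2 fold change ± SE in Dup-L against WT (y axis) of the 42 tested genes of the wider Notch list (x axis, grouped by role), without offsets (black) and with GC and length offsets (orange), with filled points for an adjusted p below 0.05. Furin (−0.85 and −0.43) is filled under both fits, Rfng with offsets alone (0.66).

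In Dup-LΔBor against Dup-L, 19 of the 42 rose and 6 fell, with a median of 0.23, where 43.6% of all tested genes passed and 21.5% passed and were higher. Mib2 (1.47 ± 0.19, edgeR adjusted p = 0.000104) and the coactivator Maml3 (0.70 ± 0.13, 0.000541) rose. The nuclear cofactor Snw1 (−0.87 ± 0.13, 0.000198), the γ-secretase subunit Psenen (−0.96 ± 0.18, 0.000663) and Adam10 (−0.70 ± 0.13, 0.000667), a protease that cleaves ligand-bound Notch, fell. Dll3 rose (1.06, edgeR adjusted p = 0.0151), and Hey2 (−0.79, 0.00165) and Rfng (−0.53, 0.0202) fell, while Hes5, Heyl, Nrarp, Rbpj and Mfng did not pass (−1.64, −0.45, 0.01, −0.05 and 0.20). With the offsets 9 of the 42 rose and 9 fell, where 27.2% of all tested genes passed. Among Dll3, Hes5, Hey2, Heyl, Nrarp, Rbpj, Mfng and Rfng, Rbpj alone rose with the offsets (0.30, edgeR adjusted p = 0.0149). Heyl (−0.86, edgeR adjusted p = 0.00641), Hes5 (−2.32, 0.0118), Hey2 (−0.48, 0.0441) and Rfng (−1.08, 0.00096) fell, though Hes5 had few counts. Dll3, Nrarp and Mfng did not pass with the offsets (0.39, −0.27 and −0.27). Psenen and Rfng levels also separated the library-number ranges in WT. Psenen had 22.7 and 22.0 CPM in WT 3 and WT 4 of the second range, and 37.3 and 36.0 CPM in WT 1 and WT 2 of the first.

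Without offsets, the other comparisons called at most 1 gene of the wider list. Psenen fell in Dup-LΔBor against WT (−0.63 ± 0.15, edgeR adjusted p = 0.0357), with 17.8 to 20.3 CPM in Dup-LΔBor against 22.0 to 37.3 CPM in WT. Mib2 fell in ΔBor het against WT (−0.71 ± 0.18, edgeR adjusted p = 0.0461), with 21.6 and 33.7 CPM in ΔBor het against 35.7 to 51.8 CPM in WT. In Dup-C and in ΔBor hom against WT, 0 of the 42 passed.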

How the data were processed

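RNA-seq of 15 E12.5 limb bud libraries was analysed from a deposited table of raw counts per gene and a deposited table of FPKM values made by the authors with a library scale that no source here states. Reads were aligned with STAR to mm9, and DESeq2 and bedtools 2.17.0 are also named, per the submitters' processing notes. How reads were counted per gene (tool, annotation, strand) was not given in the sources consulted. RNA was purified with Trizol and RNeasy columns from snap-frozen tissue and prepared with the TruSeq RNA V2 kit, per the labels' protocols. Columns were assigned to samples by their genotype and replicate names. The Dup-LΔBor columns (R2 to R5) match their group but no single label and count as unpaired replicates, and the ΔBor hom column is named R3.

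Counts were fitted in R 4.3.3 with edgeR 4.0.16 (two-sided quasi-likelihood F-test with robust dispersion, TMM, filterByExpr, 6 groups and no block), with Benjamini-Hochberg adjustment over 17655 genes and a threshold of 0.05. The SE of a log2 fold change comes from the F-statistic. "Rose" and "fell" mean that a gene passed. GC and length offsets are natural splines (5 degrees of freedom) of each library's log2 abundance relative to the gene mean on GC content and length of the longest GENCODE M21 transcript, matched by symbol for 89.1% of tested genes, with an offset of 0 for the others. They also remove any real difference that runs with GC content or length. Alternatives were GC offsets alone, the library-number range, Pitx1 level as a covariate, a replicate block, RLE size factors, no count filter, DESeq2 1.42.0, limma 3.58.1 on log2(FPKM + 1) or log2(FPKM + 0.1), and leaving out each library. The fits were also run on simulated data with known changes, without and with a linear dependence on GC content in Dup-L. That simulation set no dependence on length, Pitx1 or library-number range, and no result here rests on it. CPM uses TMM-scaled library sizes. All 10 genes are described, and of the wider list those with the 5 smallest adjusted p below the threshold in a comparison plus Notch4, Dll3, Hes5, Hey2, Heyl, Nrarp, Rbpj, Mfng and Rfng are named. One gene of that list is not reported here. Like genes are the 3 with the highest r. The genes, lists and tests were chosen with earlier results of these data known. None of the 10 genes had counts identical to another gene. Promoters come from RefSeq (GRCm38.p6), another build than that of the alignment, so no coordinate of the count table is used.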

Additional observations from a re-analysis of the deposited data

Results flagged for a closer look

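Among the 20 groups of 4 libraries examined for these genes (Dup-LΔBor and WT for each of 10 genes), 3 held a library far from the other libraries of its group, and chance places about 1 in 20 groups in that position. Notch1 in Dup-LΔBor R5 was at 109.7 CPM, against 118 to 119 CPM in R2, R3 and R4. Jag2 in the same library, Dup-LΔBor R5, was at 65.8 CPM, against 76.4 to 78.1 CPM in the other libraries of that genotype. Notch2 in WT 3 was at 392 CPM, against 253 to 261 CPM in the other WT libraries. WT 3 was also the highest library for Notch1 and Jag2, and R5 had the smallest GC gap of its genotype, at 0.14. The 20 groups are not independent, since Notch1 and Jag2, both flagged in R5, had a Pearson r of 0.98 over the 15 libraries. The WT groups also mix 2 library-number ranges.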

How the results depend on the processing

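Of 1190 single-gene values over the alternatives run, 999 kept their direction and their side of the threshold. Another 82, which passed neither in the fit as reported nor under the alternative, changed direction (reported log2 fold changes of at most 0.42 in size). Of the others, 89 lost the threshold with the same direction, 15 gained it, and 5 changed direction with a pass in 1 of the 2 fits. In Dup-L against WT, 6 genes passed, against 0 with Pitx1 as a covariate, with or without GC and length offsets, 1 with the library-number range and offsets, 0 with the replicate block and offsets, and 4 to 6 without 1 library. Without Dup-L 1 or Dup-L 2, which leaves 1 library assumed to vary like the other groups, Dll1 (−0.56 and −0.62, against −0.59 with both) and Lfng (−0.54 and −0.48, against −0.51) did not pass. In Dup-LΔBor against Dup-L, 6 passed, against 3 with GC and length offsets, 2 with Pitx1, 0 with Pitx1 and offsets, 1 with the range and offsets, and 4 to 7 without 1 library. Dll4 (0.72, against 0.79) did not pass without Dup-L 1, nor Lfng without Dup-L 1 (0.45), Dup-L 2 (0.40) or R4 (0.36), against 0.43 with all, and Dll1 passed without R5 (0.55, against 0.42). In this comparison Lfng reversed to −0.14 with GC offsets, −0.10 with GC and length offsets and −0.10 with Pitx1 and offsets, and Notch2 to −0.091 with the range and offsets and −0.050 with Pitx1 and offsets. Hey1 passed there with the range as a term (0.71, against 0.28 without it), a fit in which 4 genes passed. In ΔBor het against WT, 2 passed, against 4 with DESeq2, 1 with limma on FPKM at either pseudocount and without the count filter, 0 with limma without a filter, GC offsets, GC and length offsets, the range with or without offsets, within 1 range and the replicate block with or without offsets, and 0 to 4 without 1 library. Notch3 and Lfng passed without ΔBor het 2. With Pitx1, 3 passed in ΔBor het, with or without offsets. In ΔBor hom against WT, 1 passed, against 3 with DESeq2 or Pitx1, 0 with GC offsets, GC and length offsets, Pitx1 and offsets, the range with or without offsets, within 1 range, limma on FPKM in all 3 forms and no count filter, and 0 to 2 without 1 library, Lfng passing without WT 1. In Dup-C and in Dup-LΔBor against WT, 0 passed, and 0 to 1 without 1 library. Among the 6 genotypes, 6 passed, against 3 with GC and length offsets, 0 with the range and offsets and 5 to 7 without 1 library. Where the share of all tested genes for a fit is not given above, its count of Notch genes cannot be set against that share. This holds for the counts with Pitx1 or DESeq2 in ΔBor het and ΔBor hom. The offsets, the range and Pitx1 overlap with genotype, and the cause of each change was not tested.

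Replicate numbers shared with WT did not pair samples: correlations of deviations were −0.16 and −0.12 for Dup-C, −0.05 and 0.05 for Dup-L, and 0.14 and −0.01 for ΔBor het. With the replicate block, 4 genes passed in Dup-L against WT and 0 in ΔBor het, and the share of all tested genes for that fit is not given here. For Dup-LΔBor and ΔBor hom no paired analysis was possible because their columns carry other numbers than their labels. Dll1 and Dll4 had the fewest counts (203 to 712), and n of 1 to 4 limits all comparisons.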

Other observations

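With GC and length offsets, 7 of the 42 other Notch genes passed in Dup-LΔBor against WT, where 6.91% of all tested genes did. The ligand endocytosis ligases Mib1 (0.37 ± 0.09, edgeR adjusted p = 0.0368) and Mib2 (0.37 ± 0.09, 0.0361) and the Notch inhibitor Numb (0.24 ± 0.06, 0.0287) rose. The corepressor Spen (−0.39 ± 0.09, 0.0304), the target Heyl (−0.67 ± 0.16, 0.0308), the γ-secretase subunit Psenen (−0.66 ± 0.17, 0.0341) and the cofactor Snw1 (−0.33 ± 0.09, 0.0463) fell. Heyl had 4.99, 3.36, 5.21 and 4.08 CPM in Dup-LΔBor R2 to R5, against 5.55 to 8.05 CPM in WT, with no overlap. Without offsets Heyl did not pass (−0.60, edgeR adjusted p = 0.0614).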
